A study of Mus musculus with 5 samples.

Results

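The cytosolic ribosomal protein genes are the genes for the protein part of the ribosome outside mitochondria. They were taken from the gene list of the count matrices by symbol: Rpl or Rps followed by a number with its usual suffixes, together with Rplp0, Rplp1, Rplp2 and Rpsa, and with pseudogene symbols that hold "-ps" left out. The rule gave 83 of 31053 genes, 51 of the large subunit and 32 of the small subunit, and used no measured value. Levels were measured by droplet single-cell RNA-seq of mammary tumours from FVB/N-Tg(MMTV-PyVT)634Mul/J mice, which carry polyomavirus middle T antigen under the MMTV promoter, active mainly in mammary epithelial cells. All mice carried the transgene and received antibody at 5 mg/kg intraperitoneally for 6 weeks from 7 weeks of age. The 6 control tumours came from mice given IgG2a isotype antibody, and the 9 treated tumours from mice given B20-4.1.1, an antibody that neutralises VEGF-A. Tumour cells were sorted as DAPI-, labelled with oligonucleotide tags and run as 5 pools of 3 tumours, and each pool held tumours of 1 treatment (isotype pools 1 and 2, B20-4.1.1 pools 1, 2 and 3). Pools were thus nested in treatment, and no pool compares the treatments within itself. The study also classes treated tumours as low or high in hypoxia, and since the labels do not give that class, the B20-4.1.1 group may hold both.

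Ribosomal proteins are made in step with ribosomal RNA and are assembled with it in the nucleolus into a large and a small subunit. Their mRNAs, like those of several translation factors, typically begin with a cytosine followed by a run of pyrimidines, the terminal oligopyrimidine tract, through which mTORC1 and the RNA-binding protein Larp1 control how much of the mRNA is translated or stored. Lymphocytes in the naive state are known to keep large stores of these mRNAs, and in single-cell data ribosomal protein transcripts often take up a large share of the molecules in small resting cells.

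The transcription starts of members named below are shown because they carry, or lack, this shared feature. RefSeq windows of GRCm38.p6 were found for 63 of the 83 members. A start motif, defined as C at the annotated start followed by at least 4 letters that are each C or T, was present at an annotated start of 13 of the 63 members (20.6%) and of 813 of 27025 genes with a window (3.01%). Each sequence below covers the last 15 bases before the annotated start and the first 15 bases of exon 1, read on the gene's own strand. Capitals mark the C at the start and its unbroken run of C and T. The motif was found for Rpl35 (chr2:39005117-39005146, minus strand), Rpl38 (chr11:114668565-114668594, plus strand), Rplp2 (chr7:141447636-141447665, plus strand) and Rps15a (chr7:118116133-118116162, minus strand). It was not found in this window for Rpl12 (chr2:32961697-32961726, plus strand), Rps15 (chr10:80292416-80292445, plus strand), Rps19 (chr7:24884577-24884606, plus strand, the first of its listed starts) and Rps27l (chr9:66946071-66946100, plus strand, the first of its listed starts). A start annotated a few bases away from the used one is enough to lose the match.
Rpl35: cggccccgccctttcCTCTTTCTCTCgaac
Rpl38: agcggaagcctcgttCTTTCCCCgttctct
Rplp2: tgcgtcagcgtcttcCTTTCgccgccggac
Rps15a: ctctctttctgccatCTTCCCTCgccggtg
Rpl12: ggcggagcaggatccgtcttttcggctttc
Rps15: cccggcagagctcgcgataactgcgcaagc
Rps19: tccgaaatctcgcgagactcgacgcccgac
Rps27l: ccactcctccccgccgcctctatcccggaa

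Of 30340 deposited cells, 19533 with at least 2500 and at most 27500 unique molecular identifiers (UMIs, each a captured mRNA molecule) and at most 20% mitochondrial UMIs were kept, 511 to 2341 per tumour with 3089430 to 21402317 gene UMIs. The 83 genes held 21.4% of all kept gene UMIs. Tumours of a pool shared 0 barcodes, and pools shared at most 24. The tag of the assigned tumour held 84.3% to 97.6% of tag UMIs, lowest in isotype tumour 3 of isotype pool 1. The set of tags that holds its own was the highest in 86.8% of barcodes of that tumour. This was 95.5% in isotype tumour 2, of the same pool, and at least 98.9% in every other tumour. Between the epithelial gene counts of a pair of tumours, chi-square over degrees of freedom was 2.69 to 38.9 with a median of 4.15 over 15 pairs of the same pool, and 5.29 to 142 with a median of 23.7 over 90 pairs of different pools. Isotype pool 1 stood apart in its mitochondrial share, with a median of 5.90% to 6.03% of UMIs in epithelial-like cells against 2.49% to 3.65% in the other 12 tumours. It also lost more cells to the limits. Its tumours kept 1461 of 3273, 2029 of 4215 and 1636 of 3538 barcodes. Those of isotype pool 2 kept 1885 of 2386, 1278 of 1703 and 2341 of 2993. In 3 B20-4.1.1 tumours (numbers 3, 4 and 6) most of the kept cells were T-like (58.2%, 66.7% and 66.0%), and the highest share elsewhere was 22.1%.

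Cells were put in a class when they held UMIs of at least 40% of its markers and of no other class. This gave 13529 epithelial-like, 2746 T-like, 1595 macrophage-like and 183 B-like cells, and 17 to 84 cells each of neutrophil-like, fibroblast-like, dendritic-like and endothelial-like cells. No member is a marker. Epcam, an epithelial adhesion molecule, had a UMI in 99.9% of epithelial-like cells, Cd3e, a T cell receptor component, in 92.3% of T-like cells and Csf1r, the macrophage growth factor receptor, in 89.3% of macrophage-like cells. Epcam also had a UMI in 27.1% of T-like cells, at summed epithelial markers of 3.92 to 4.66 UMIs per 10000 in isotype and 2.10 to 5.29 in B20-4.1.1 tumours, and summed macrophage markers in T-like cells were 9.13 to 15.2 in isotype and 1.71 to 14.3 in B20-4.1.1 tumours. Of the macrophage markers Tyrobp had a UMI in 33.5% and Apoe in 28.4% of T-like cells. The others were at 0.146% (Adgre1) to 9.91% (Lyz2), with Csf1r at 1.13%. Whether these UMIs came from other cells or from the T-like cells themselves was not tested, nor was their part in the member levels. Among T-like cells 1536 had naive markers (such as Lef1 and Tcf7) and 965 had effector markers (such as Nkg7, Ccl5, Gzmb, Ctla4 and Icos). The effector gate asked for no particular gene, so a cell could pass it without a UMI of Nkg7, Ccl5 or Gzmb.

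The summed level of the 83 genes ordered the classes in the same way in every tumour: T-like cells held the largest share, then epithelial-like cells, then macrophage-like cells. Levels are UMIs per 10000 gene UMIs, summed over the cells of a class in a tumour, and since each UMI tags the end of a transcript they were not divided by gene length. In isotype tumours the lowest, median and highest summed levels were 2485, 2546 and 2703 in T-like cells, 1882, 2034 and 2343 in epithelial-like cells and 1290, 1395 and 1653 in macrophage-like cells. In B20-4.1.1 tumours they were 2510, 2829 and 3762 in T-like cells, 1828, 2101 and 2223 in epithelial-like cells and 1238, 1359 and 1799 in macrophage-like cells. Within a tumour the T-like level was above the epithelial-like level in 15 of 15 tumours, by 1.15-fold to 2.06-fold with a median of 1.30. The epithelial-like level was above the macrophage-like level in 15 of 15 tumours, by 1.24-fold to 1.64-fold with a median of 1.48. Cell sizes differed between the classes: median UMIs per cell were 7494 to 11931 in epithelial-like, 3436 to 5781 in T-like and 5013 to 9264 in macrophage-like cells. Among cells of 2500 to 5000 UMIs the same order held in every tumour with 20 such cells of both classes, at a median of 1.56-fold for T-like over epithelial-like cells (13 tumours) and of 1.31-fold for epithelial-like over macrophage-like cells (11 tumours).

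**Figure D1:**
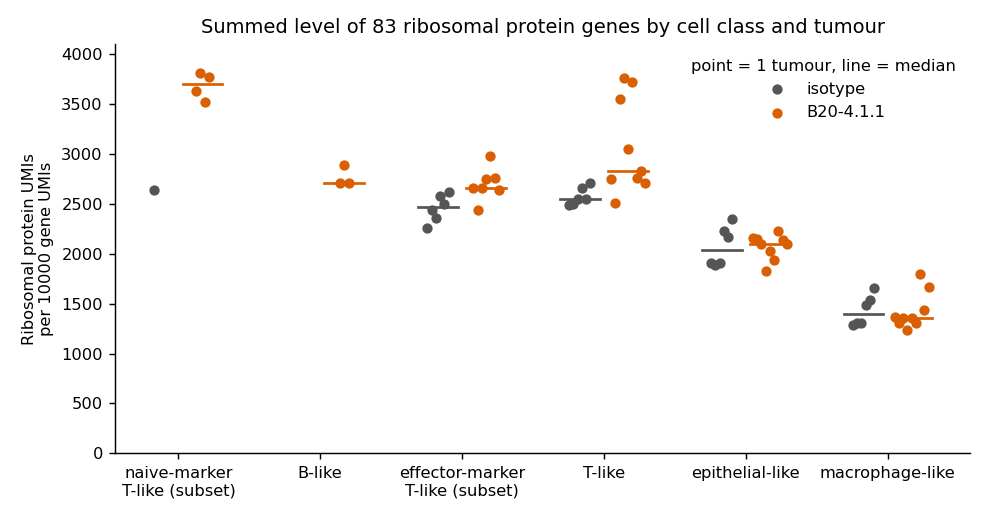
Summed level of the 83 ribosomal protein genes (UMIs per 10000 gene UMIs, y axis) by cell class and T-like state (x axis), where each point is 1 tumour with at least 20 cells of the class and each line a group's median. T-like levels lie between 2485 and 3762, epithelial-like levels between 1828 and 2343 and macrophage-like levels between 1238 and 1799.

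Rps24 was among the 3 highest members of each main class. In epithelial-like cells they were Rps24 at 62.7, Rpl23 at 60.6 and Rpl37a at 58.9 UMIs per 10000. In T-like cells they were Rps24 at 132, Rps29 at 131 and Rpl39 at 93.4, and in macrophage-like cells Rps29 at 70.0, Rps24 at 40.6 and Rpl39 at 40.6. Rps24, a small-subunit protein needed to process ribosomal RNA, and Rps29, a small zinc-binding protein of the same subunit, were thus among the leading members of both immune classes. At the other end, 17 members lay under 4 per 10000 in epithelial-like cells. For 5 of these 17 (Rpl10, Rpl27, Rpl9, Rps12 and Rps27) at least 50% of the last 300 transcript bases also occur, as exact stretches of at least 60 bases, in another gene of the count matrix, which for Rps27 and Rpl10 is 100%. No member above that level shared as much with another counted gene, and the counts of these 5 are uncertain. The other 12 low members, among them Rpl13a at 1.57, Rpl36a at 1.08 and Rpl35 at 0.838, shared less than 50% with a counted gene. Rpl36a shared 67% with an annotated gene outside the count matrix. With any annotated gene, 21 members shared at least 50%, at a median level of 19.4, and 6 of these 21 lay under 4 per 10000. Among those above it were Rpl38 (71%), Rps27a (88.7%), Rpl30 (83.3%) and Rps29 (57%). Why these 12 were low was not tested, so their counts also need care. The paralogues Rpl3l, known from striated muscle, and Rpl10l and Rpl39l, known from testis, were low throughout. In 13529 epithelial-like cells they had 5, 25 and 3 UMIs. Rpl3l had 0 UMIs in T-like cells but 63 in macrophage-like cells, with 0.0107 to 0.174 UMIs per 10000 and at least 1 UMI in each tumour. Rpl39l had 44 UMIs in T-like and 23 in macrophage-like cells, with its highest macrophage-like levels, 0.298 and 0.162, in B20-4.1.1 tumours 4 and 6.

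T-like cells were compared with epithelial-like cells of the same 15 tumours to see which members make up the difference. Of the 80 members tested, 59 were higher and 3 lower in T-like cells (edgeR quasi-likelihood test with the tumour as a block, Benjamini-Hochberg adjusted p under 0.05 over all genes). The share called in either direction, 77.5% of members, was near that of all genes tested, 77.6%, but among all genes 36.3% were higher and 41.3% lower. The median log2 fold change was 0.43 for the members and -0.05 for all 10101 genes. With the size factors of DESeq2 the median over all genes moved to -0.19 and that over the members to 0.31. Large-subunit genes were higher for 34 of 48 (median 0.38) and small-subunit genes for 25 of 32 (median 0.57).

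Rps15a, a small-subunit protein, showed one of the widest gaps. Its lowest, median and highest epithelial-like levels were 29.0, 35.3 and 42.4 UMIs per 10000 in isotype and 27.9, 35.7 and 39.7 in B20-4.1.1 tumours. Its T-like levels were 62.0, 72.3 and 84.0 in isotype and 77.5, 87.6 and 91.9 in B20-4.1.1 tumours. No T-like level was as low as any epithelial-like level, and the log2 fold change was 1.20 (SE 0.09, edgeR adjusted p = 2.7e-11). Rps29 was higher by 1.08 on the log2 scale (SE 0.13) and Rpl30, of the large subunit, by 1.02 (SE 0.11). Rps27, with only 0.115 UMIs per 10000 in epithelial-like and 0.337 in T-like cells, was higher by 1.29 (SE 0.17), on counts that a near copy makes uncertain. Rpsa, the small-subunit protein also known as the laminin receptor, was higher by 0.93 (SE 0.11). Of the stalk proteins, which recruit the elongation factors, Rplp1 was higher by 0.81 (SE 0.13) and Rplp2 by 0.80 (SE 0.10), while their partner Rplp0 did not pass the test (0.16, SE 0.11, adjusted p = 0.18) and was at -0.01 without the 3 T-rich tumours. Rps27a, which is made as a fusion to ubiquitin, did not pass either (0.07, SE 0.10), and its sign changed between settings.

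Rps27l differed most from the other members in direction and size. It is a paralogue of Rps27 and a known target of p53. Its lowest, median and highest epithelial-like levels were 14.9, 17.5 and 21.4 in isotype and 10.8, 13.8 and 18.3 in B20-4.1.1 tumours. Its T-like levels were 3.72, 4.76 and 5.14 in isotype and 1.97, 3.08 and 5.43 in B20-4.1.1 tumours. The classes did not overlap, and the log2 fold change was -2.02 (SE 0.08, edgeR adjusted p = 1.6e-16). The other members lower in T-like cells were Rpl7l1, a paralogue of Rpl7 with a role in ribosome assembly (-0.55, SE 0.09), and Rpl7a (-0.25, SE 0.08), which in cells of 2500 to 5000 UMIs was at -0.08 and not called. Rpl7 itself was at 0.19 (SE 0.10, adjusted p = 0.096). Rpl22, a large-subunit protein needed for T cell development, was higher in T-like cells by 0.33 (SE 0.08) and its paralogue Rpl22l1 by 0.85 (SE 0.09). Of the remaining members named by rule, Rpl39 (0.70, SE 0.09), Rpl36a (0.59, SE 0.11), Rpl10 (0.63, SE 0.15), Rps3a1 (0.61, SE 0.10), Rpl3 (0.40, SE 0.08) and Rps4x (0.38, SE 0.11) were all higher in T-like cells.

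Macrophage-like cells showed the opposite picture. Of 79 members tested, 3 were higher and 72 lower than in epithelial-like cells of the same tumours, where 79.4% of all 9562 genes were called, 35.5% higher and 43.9% lower. The median log2 fold change was -0.51 for the members and -0.11 for all genes, and it was -0.54 for the large and -0.50 for the small subunit. Among cells of 2500 to 5000 UMIs the median of the members was -0.31, with 2 higher and 52 lower of 74. Rpl28 is a large-subunit protein, and its lowest, median and highest levels were 38.6, 42.5 and 48.0 in epithelial-like cells and 19.6, 22.1 and 26.0 in macrophage-like cells of isotype tumours. In B20-4.1.1 tumours they were 34.8, 41.0 and 44.1 against 17.5, 20.1 and 28.0. The classes did not overlap, and the log2 fold change of Rpl28 was -0.89 (SE 0.05, edgeR adjusted p = 1.2e-14). Rps27l, lower again, had the widest gap (-1.31, SE 0.07), followed after Rpl28 by Rpl38 (-0.88, SE 0.06) and Rps14 (-0.85, SE 0.05). The stalk proteins Rplp0 (-0.84, SE 0.05), Rplp1 (-0.43, SE 0.05) and Rplp2 (-0.26, SE 0.05) and Rpsa (-0.48, SE 0.05) were lower too.

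The 3 members that were higher in macrophage-like cells were Rpl10 (0.58, SE 0.13, on uncertain counts), Rps29 (0.55, SE 0.04) and Rps25 (0.25, SE 0.05). Rps29 had a lowest, median and highest of 66.9, 68.1 and 69.5 in macrophage-like and of 46.7, 48.5 and 50.1 in epithelial-like cells of isotype tumours. In B20-4.1.1 tumours it had 60.9, 70.4 and 80.5 in macrophage-like and 41.7, 46.9 and 56.3 in epithelial-like cells. No macrophage-like level was as low as any epithelial-like level, while the summed level of all members ran the other way in each tumour. The paralogues Rpl22l1 (-0.07, SE 0.05, adjusted p = 0.14), Rpl7l1 (-0.13, SE 0.07, adjusted p = 0.092) and Rps27 (-0.12, SE 0.16, adjusted p = 0.48) did not pass the test, whereas Rpl22 (-0.69, SE 0.05) and Rpl7 (-0.79, SE 0.05) were lower. Rpl39 (-0.44), Rpl3 (-0.51), Rps4x (-0.62), Rpl36a (-0.71), Rps3a1 (-0.52) and Rps27a (-0.51) were lower as well (SE 0.04 to 0.07).

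**Figure D2:**
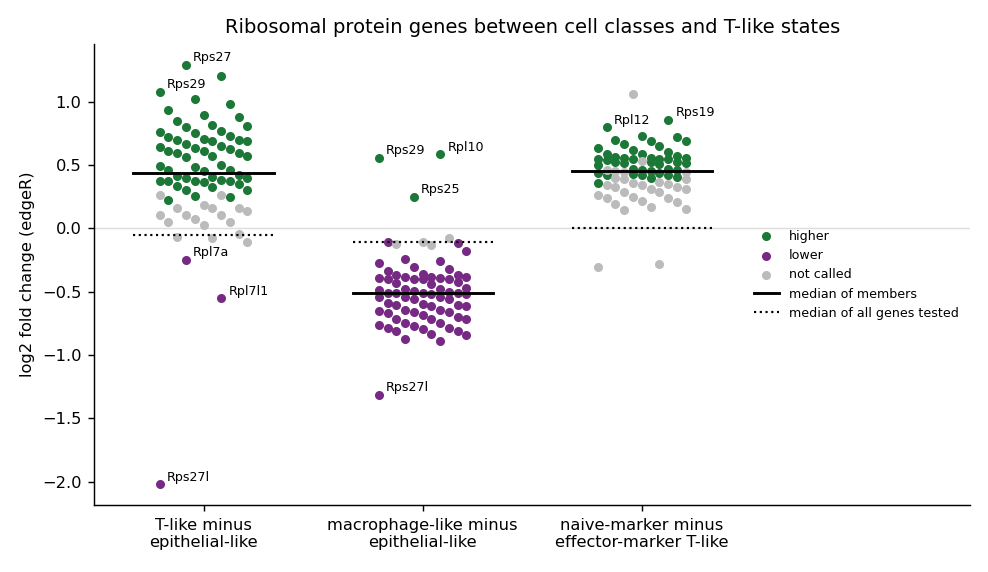
Fitted log2 fold change of each tested member (y axis, edgeR) for T-like against epithelial-like, macrophage-like against epithelial-like and naive-marker against effector-marker T-like cells (x axis), coloured by call, with the median of the members as a solid line and that of all genes tested as a dotted line. Most members lie above 0 in the first and last comparison (medians 0.43 and 0.45) and below 0 in the second (median -0.51), with Rps27l at -2.02 and -1.31 in the first 2.

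Within T-like cells the members were higher in the naive-marker than in the effector-marker state. The summed level in naive-marker cells was 2639 in isotype tumour 2 and 3630, 3806, 3522 and 3773 in B20-4.1.1 tumours 3, 4, 5 and 6, the tumours with at least 20 such cells. On 7 to 15 such cells each, isotype tumours 1, 3, 4, 5 and 6 had 3245, 3212, 3331, 3140 and 3561. On 1 to 13 such cells each, B20-4.1.1 tumours 1, 2, 7, 8 and 9 had 3235, 3161, 4047, 3672 and 2979. Isotype tumour 2 was thus the lowest isotype tumour, and the groups overlapped. In effector-marker cells the lowest, median and highest levels were 2254, 2467 and 2618 in the 6 isotype tumours and 2439, 2661 and 2979 in 7 B20-4.1.1 tumours. In each of the 4 tumours with 20 cells of both states the naive-marker level was higher, by 1.08-fold to 1.36-fold, and with any number of cells it was higher in 15 of 15 tumours. Effector-marker T-like cells were still above the epithelial-like cells of their tumour in 13 of 13 tumours, by a median of 1.24-fold. B-like cells, present with at least 20 cells only in the 3 T-rich tumours (91, 30 and 54 cells in B20-4.1.1 tumours 3, 4 and 6), held 2703, 2888 and 2712 UMIs per 10000. Their level was below that of the naive-marker T-like cells of the same tumour in 3 of 3 tumours.

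In the test over these 4 tumours, with the tumour as a block, 45 of 77 members (58.4%) were higher and 0 lower in the naive-marker state, where 10.7% of all 4411 genes were called and 5.3% were higher. At an unadjusted p under 0.05, 60 members were higher and 0 lower, against 11.3% of all genes higher. DESeq2 called 40 higher and 0 lower. The median log2 fold change was 0.45 for the members and 0.00 for all genes, with 23 of 31 small-subunit and 22 of 46 large-subunit genes called. The count rested on B20-4.1.1 tumours: it was 14 without tumour 3 (B20-4.1.1 pool 1) and 0 without tumours 5 and 6 (pool 2), which left 2 tumours, while the median stayed at 0.40 and 0.41.

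Rps19, a small-subunit protein mutated in many cases of Diamond-Blackfan anaemia, led the called members. Its naive-marker levels were 41.9 UMIs per 10000 in isotype tumour 2 and 62.1, 52.7 and 65.9 in B20-4.1.1 tumours 3, 5 and 6. Its effector-marker levels were 29.3 in isotype tumour 2 and 37.2, 30.7 and 38.1 in those B20-4.1.1 tumours. The naive-marker level was higher in 4 of 4 tumours and all naive-marker levels lay above all effector-marker levels (log2 fold change 0.85, SE 0.11, edgeR adjusted p = 0.00056). Rpl8, a large-subunit protein near the catalytic centre, had naive-marker levels of 32.4 and, in the B20-4.1.1 tumours, of 48.2, 42.2 and 49.9. Its effector-marker levels were 23.9, 29.4, 31.0 and 31.0 in the same order of tumours, and the log2 fold change was 0.72 (SE 0.12, adjusted p = 0.0021). Rpl12, which sits at the base of the stalk, was higher by 0.80 (SE 0.13) and Rpl5, which carries the smallest large-subunit RNA and can bind Mdm2, by 0.73 (SE 0.15).

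The stalk proteins Rplp0 (0.50, SE 0.11), Rplp1 (0.65, SE 0.13) and Rplp2 (0.66, SE 0.16) and Rpsa (0.46, SE 0.10) were higher in the naive-marker state, as were Rps27a (0.52), Rps4x (0.54), Rps3a1 (0.42), Rpl7 (0.59) and Rpl22 (0.39), each with an SE of 0.11 to 0.13. Rpl22l1 (0.17, SE 0.13), Rpl36a (0.34, SE 0.17), Rpl39 (0.26, SE 0.11) and Rpl3 (0.24, SE 0.12) did not pass. Rps27l (-0.30, SE 0.20) and Rpl7l1 (-0.28, SE 0.29) were the members with a fitted value below 0, and neither passed. Rps27 had the widest fitted value (1.06, SE 0.35) but did not pass at an adjusted p of 0.083. Median UMIs per cell were 3474 to 6322 in naive-marker and 4477 to 6355 in effector-marker cells. Among cells of 2500 to 5000 UMIs the median log2 fold change of the members was 0.63.

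**Figure D3:**
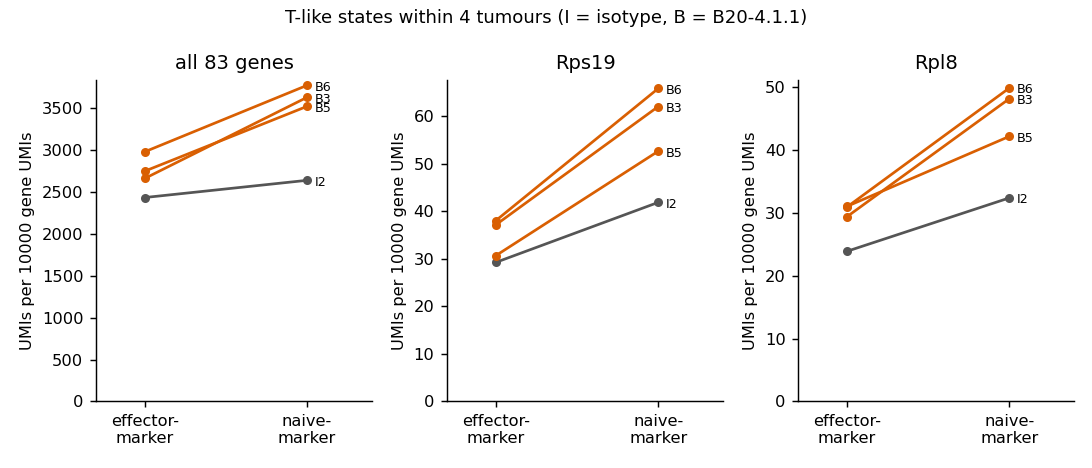
Levels in UMIs per 10000 gene UMIs (y axes) in effector-marker and naive-marker T-like cells (x axes) of the 4 tumours with at least 20 cells of both states, for all 83 genes together, Rps19 and Rpl8, with a line joining the states of 1 tumour. All 12 lines rise, and of these 4 tumours isotype tumour 2 has the lowest naive-marker level in each panel. The other isotype tumours, with fewer than 20 naive-marker cells and higher summed levels, are not shown.

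In tumours with at least 20 such cells, epithelial-like cells that expressed hypoxia genes or cell cycle genes had summed member levels within 1.20-fold of the rest. Cells with UMIs of at least 4 of 8 hypoxia genes had a lowest, median and highest level of 1933, 2085 and 2392 in isotype and of 2045, 2191 and 2288 in B20-4.1.1 tumours. They stood at 0.991-fold to 1.20-fold of the other epithelial-like cells of their tumour, higher in 13 of 14 tumours with a median of 1.02-fold. Their median UMIs per cell, 9579 to 16633.5, exceeded the 7075 to 11392 of the other cells, and the part of depth was not tested. Among cells of 2500 to 5000 UMIs, with any number of cells, the hypoxia-gated level was higher in 7 of 13 tumours, at 0.497-fold to 1.34-fold. Cells with at least 4 of 8 cell cycle genes stood at 0.980-fold to 1.12-fold of the others, higher in 5 of 7 tumours (6 isotype and 1 B20-4.1.1). Their median UMIs per cell were 7397.5 to 20020 against 7428 to 11930. Among cells of 2500 to 5000 UMIs, with any number of cells, the level of cells with cell cycle genes was higher in 3 of 7 tumours. It stood at 0.634-fold to 1.32-fold, with a median of 0.931-fold.

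The treatment comparison asked whether the members differed between B20-4.1.1 and isotype tumours within a class. In epithelial-like cells the summed level averaged 2072 ± 123 (SD, n = 9) in B20-4.1.1 and 2071 ± 199 (SD, n = 6) in isotype tumours, and the groups overlapped. The spread lay mostly between pools. The isotype tumours were at 1882 to 1906 in pool 1 and at 2162 to 2343 in pool 2, and the B20-4.1.1 tumours were at 2096 to 2155, 1828 to 2023 and 2101 to 2223 in pools 1, 2 and 3. Without isotype pool 1 the B20-4.1.1 mean minus the isotype mean was -173 UMIs per 10000, and without isotype pool 2 it was 176. The higher mitochondrial share of isotype pool 1 moved with its lower member level, and its part was not tested.

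**Figure D4:**
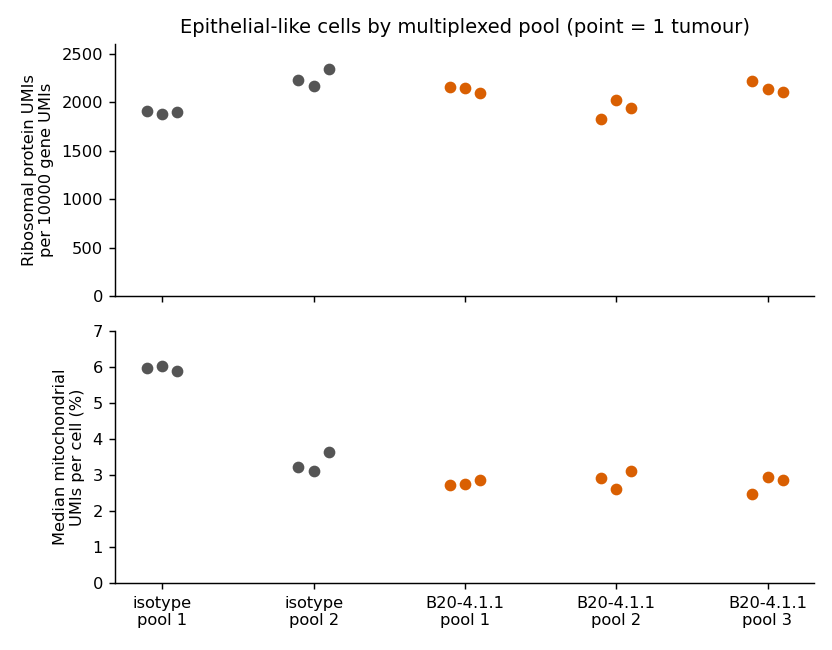
Summed level of the 83 genes (upper panel, UMIs per 10000 gene UMIs) and median mitochondrial share of UMIs per cell (lower panel, %) in epithelial-like cells, by multiplexed pool (x axis), where each point is 1 tumour. Isotype pool 1 has the lowest isotype levels (1882 to 1906) and the highest mitochondrial shares (5.90% to 6.03%).

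Gene by gene, 7 of 80 members tested (8.75%) passed the test in epithelial-like cells, where 14.7% of all 12289 genes were called, 7.55% higher and 7.12% lower. Of these members 3 rose (Rpl35, Rpl38 and Rpl36a) and 4 fell (among them Rpl13a, Rps15 and Rpl12) with B20-4.1.1. The median log2 fold change was 0.07 for the members and -0.01 for all genes. With the pool as a random block (limma voom, correlation 0.536) only Rpl13a passed, at -0.61 (adjusted p = 0.041), and the other 6 had adjusted p of 0.105 to 0.21. On counts summed per pool, with 3 pools against 2, 0 members passed and Rpl13a had an adjusted p of 0.377.

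Rpl13a, a large-subunit protein that can leave the ribosome to silence inflammatory mRNAs, had levels of 2.12 to 2.27 UMIs per 10000 in isotype pool 1, 1.55 to 1.66 in isotype pool 2 and 0.906 to 1.25 in B20-4.1.1 tumours. Every B20-4.1.1 tumour lay below every isotype tumour (log2 fold change -0.66, SE 0.09, edgeR adjusted p = 0.00055), and Rpl13a passed the test without any 1 of the 5 pools. Rpl31, of the large subunit, also did not overlap between groups. It had 11.9 to 13.9 in isotype and 9.08 to 11.5 in B20-4.1.1 tumours but did not pass (-0.25, SE 0.09, adjusted p = 0.058). Of all genes 1.3% lay below isotype without overlap.

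Rps15 and Rpl12 had their highest levels in isotype pool 1, and their isotype pool 2 levels overlapped the B20-4.1.1 range. Rps15, a small-subunit protein needed for export of that subunit, had 24.8 to 25.2 in isotype pool 1, 15.8 to 18.3 in isotype pool 2 and 12.1 to 16.7 in B20-4.1.1 tumours. The groups overlapped, and the log2 fold change was -0.41 (SE 0.11, adjusted p = 0.019). Rpl12 had 25.1 to 25.5, 16.8 to 19.1 and 13.4 to 19.0 in the same order (-0.34, SE 0.11, adjusted p = 0.040). Without isotype pool 1 the adjusted p was 0.44 for Rpl12 and 0.32 for Rps15. Neither passed without B20-4.1.1 pool 1 or pool 2 either, at adjusted p of 0.14 and 0.16 for Rpl12 and 0.084 and 0.088 for Rps15.

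The 3 members that rose differed in how far they followed the pools. Rpl35, a large-subunit protein near the exit of the peptide tunnel, had 0.542 to 0.624 in isotype pool 1, 0.741 to 0.812 in isotype pool 2, 1.35 to 1.43 in B20-4.1.1 pool 1 and 0.695 to 0.936 in B20-4.1.1 pools 2 and 3. Its log2 fold change was 0.64 (SE 0.18, adjusted p = 0.026), and without B20-4.1.1 pool 1 or isotype pool 1 the adjusted p was 0.14 and 0.33. Rpl38, known from mice for its role in translating Hox mRNAs, had 43.7 to 50.5 in isotype pool 1, 41.6 to 47.9 in isotype pool 2 and 49.8 to 68.8 in B20-4.1.1 tumours. Its groups met only between 49.8 and 50.5 (0.48, SE 0.10, adjusted p = 0.0047), and it passed without any 1 of the 5 pools. Rpl36a, of the large subunit, had 0.883 to 0.910, 0.963 to 1.10 and 0.988 to 1.37 in the same order (0.41, SE 0.10, adjusted p = 0.011), and it did not pass without isotype pool 1 (adjusted p = 0.16) or B20-4.1.1 pool 1 (adjusted p = 0.060).

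How many members passed depended on the isotype pools. Without isotype pool 2, leaving pool 1 as the only control, 57 members passed, 51 of them higher in B20-4.1.1 tumours, with a median of 0.37. Without isotype pool 1, 3 members passed, 1 higher and 2 lower, with a median of -0.15. Without B20-4.1.1 pools 1, 2 and 3 the counts were 2, 4 and 12. The stalk proteins Rplp0 (0.11, SE 0.12), Rplp1 (-0.07, SE 0.11) and Rplp2 (0.22, SE 0.10), Rpsa (0.04, SE 0.11) and the paralogues Rpl22 (0.07, SE 0.11), Rpl22l1 (0.10, SE 0.17), Rpl7l1 (0.04, SE 0.07) and Rps27l (-0.31, SE 0.15) did not pass. Rps27l reached 15.1 in isotype pool 1, 21.4 in isotype pool 2 and 18.3 in B20-4.1.1 tumours, and all 3 tumours of isotype pool 2 lay above the others, so only isotype pool 2 stood above the treated range. Nor did Rpl39 (0.01), Rpl3 (0.09), Rpl7 (0.03), Rps4x (0.11), Rpl10 (0.31), Rps27 (0.01), Rps3a1 (0.11) and Rps27a (0.29) pass, with SE of 0.09 to 0.14, and several of these signs turned when a pool was left out.

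In T-like cells the summed level was 2485 to 2703 in isotype tumours and 2510 to 3762 in B20-4.1.1 tumours, with the 3 T-rich tumours at 3550, 3762 and 3724. No member passed the test, where 0% of all 6253 genes did, while 58 of 78 members had an unadjusted p under 0.05, all of them higher with B20-4.1.1, against 15.6% of all genes in either direction and 9.95% higher. DESeq2 called 4 members, all higher, and 20 genes in all. The median log2 fold change was 0.40 for the members and 0.01 for all genes, and 73 of 78 members were above 0 against 52.1% of all genes. Without the 3 T-rich tumours the median was 0.15, with the pool as a random block 0.37, and in effector-marker T-like cells alone 0.21, with 1 member called. The T-rich tumours held most of the naive-marker cells: 543, 294 and 537 such cells lay in B20-4.1.1 tumours 3, 4 and 6. The other tumours with at least 20 were B20-4.1.1 tumour 5, with 56, and isotype tumour 2, with 20. The part of the naive-marker share in the difference was not tested beyond these values. The summed macrophage markers in T-like cells, given above, had a median of 12.6 in isotype and 9.72 in B20-4.1.1 tumours, and their part was not tested either.

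Rpl35 had the widest T-like difference. Its lowest, median and highest levels were 0.592, 0.790 and 0.975 in isotype and 0.888, 1.42 and 1.93 in B20-4.1.1 tumours. Only B20-4.1.1 tumours 8 and 9, at 0.888 and 0.900, lay within the isotype range, and Rpl35 did not pass (1.02, SE 0.19, edgeR adjusted p = 0.10). Such levels rest on few molecules, since B20-4.1.1 tumour 8 held 157690 gene UMIs in 27 T-like cells. Rpl36a (0.87, SE 0.18, adjusted p = 0.11) and the stalk protein Rplp2 (0.68, SE 0.17, adjusted p = 0.15) did not pass either, nor did Rplp0 (0.50, SE 0.16), Rplp1 (0.46, SE 0.20) and Rpsa (0.45, SE 0.18). The paralogue pairs Rpl22 (0.37, SE 0.12) and Rpl22l1 (0.38, SE 0.12), and Rpl7 (0.40, SE 0.16) and Rpl7l1 (0.48, SE 0.14), did not pass, and Rpl10 was at -0.0068 (SE 0.26). In 4 members, Rpl38, Rpl6, Rpl24 and Rpl3, every B20-4.1.1 tumour lay above every isotype tumour, which held for 5 of all 6253 genes (0.08%). Rpl38 had 55.4, 59.4 and 63.7 as its lowest, median and highest levels in isotype and 65.7, 70.3 and 73.0 in B20-4.1.1 tumours (0.37, SE 0.10, adjusted p = 0.19). Rpl38 thus had a gap between the groups in T-like cells and the narrow overlap given above in epithelial-like cells, on the same pools. Rps27l was at -0.38 (SE 0.18, adjusted p = 0.32), with 3.72, 4.76 and 5.14 in isotype and 1.97, 3.08 and 5.43 in B20-4.1.1 tumours.

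In macrophage-like cells 0 of 77 members passed, and 0.0289% of all 6917 genes did. At an unadjusted p under 0.05 there were 9 members, 4 higher and 5 lower, against 9.41% of all genes, and DESeq2 called 1 member. The median log2 fold change was 0.06 for the members and -0.01 for all genes. Rpl35 was at 0.73 (SE 0.17, edgeR adjusted p = 0.11), with lowest, median and highest levels of 0.362, 0.449 and 0.669 in isotype and 0.485, 0.707 and 0.988 in B20-4.1.1 tumours. These levels too rest on few molecules, since B20-4.1.1 tumour 3 held 184538 gene UMIs in 23 macrophage-like cells. Rpl36a was at 0.53 (SE 0.15, adjusted p = 0.24) and Rpl13a at -0.55 (SE 0.19, adjusted p = 0.32). The stalk protein Rplp2 was at 0.32 (SE 0.12), and Rplp0 (0.0016), Rplp1 (-0.02), Rpsa (0.10), Rpl22 (0.07), Rpl22l1 (0.04) and Rps27l (-0.16) lay nearer to 0, with SE of 0.11 to 0.18. The summed level by pool was 1290 to 1306 and 1484 to 1653 in isotype pools 1 and 2 and 1307 to 1361, 1238 to 1354 and 1438 to 1799 in B20-4.1.1 pools 1, 2 and 3. Median mitochondrial shares were 3.86% to 4.29% in isotype pool 1 and 1.53% to 2.60% in the other pools. Median UMIs per cell were 5722 to 6836.5 in isotype pool 1 and 8010 to 9264 in B20-4.1.1 pool 2. The part of the mitochondrial share or of depth in these levels was not tested. Without isotype pool 2 there were 9 called members, 8 of them higher.

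**Figure D5:**
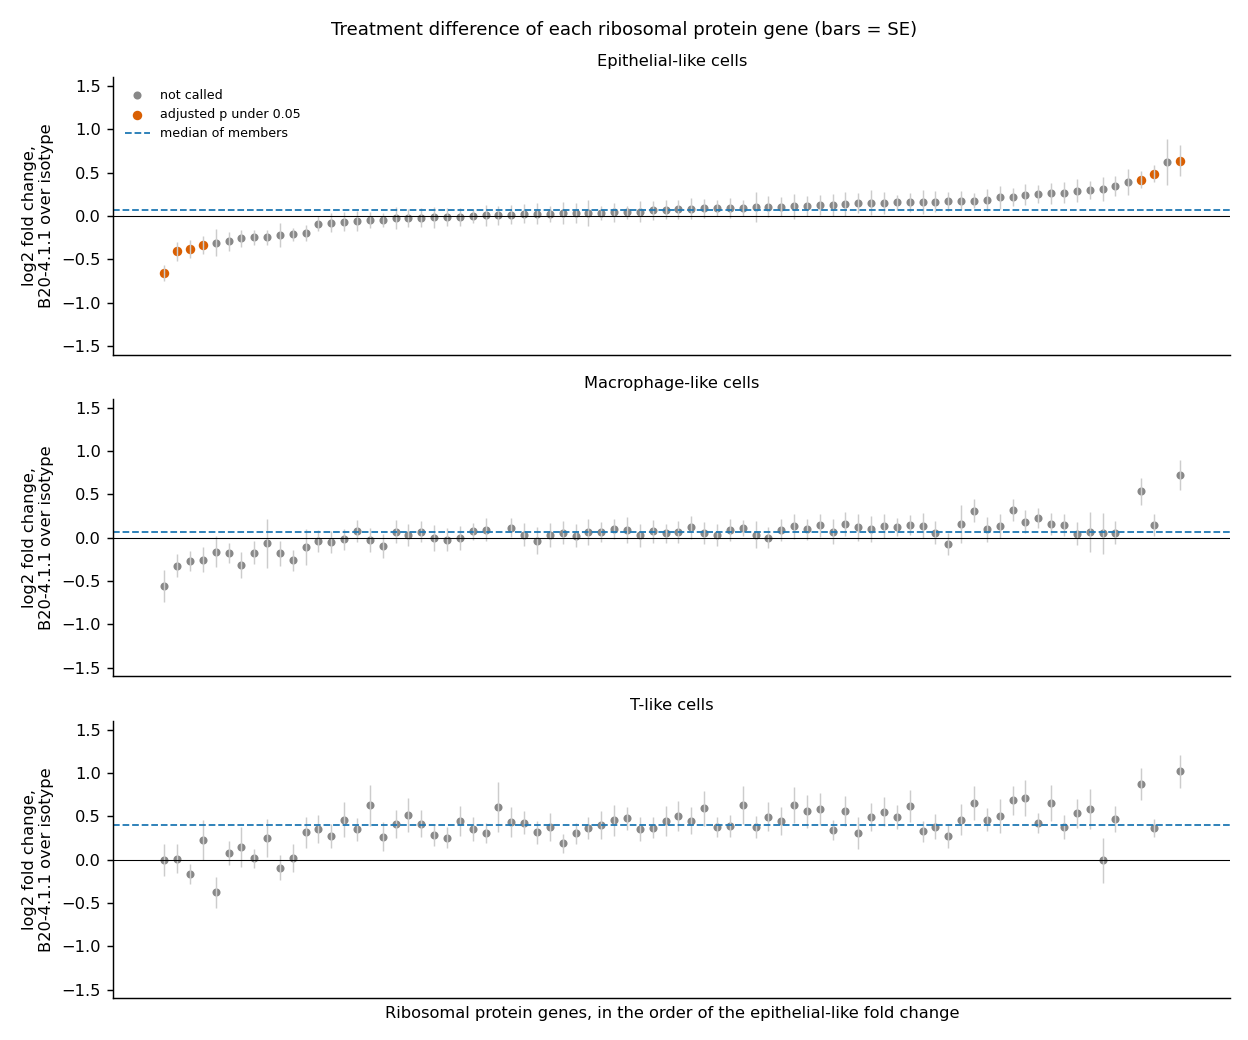
Fitted log2 fold change of B20-4.1.1 over isotype (y axes, bars = SE) for each tested member in epithelial-like, macrophage-like and T-like cells, with members along the x axis, unlabelled, in the order of the epithelial-like value and the median of the members as a dashed line. In T-like cells 73 of 78 points lie above 0 but none is called, and in epithelial-like cells 7 points are called, 4 below and 3 above 0.

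Other genes of the pathway were counted in the same fits. A set of 4 ribosome-associated genes, among them Rack1, Fau and Rpl36al, was counted first. In T-like against epithelial-like cells 3 were higher (among them Fau at 0.61 and Rack1 at 0.24 on the log2 scale) and 0 lower, and in macrophage-like against epithelial-like cells 0 were higher and 3 lower (among them Rpl36al at -0.63 and Rack1 at -0.49). Among 21 translation factors and other genes with the same kind of mRNA start, 12 were higher and 2 lower in T-like cells, with Nap1l1 at 0.97 and the poly(A)-binding protein Pabpc1 at 0.86. In macrophage-like cells 2 were higher and 18 lower, led by the elongation factors Eef1b2 (-0.90) and Eef2 (-0.66) and the nascent chain binding protein Naca (-0.86). Between T-like states 3 of 21 were higher in naive-marker cells, Tpt1 (0.77), Eef1g (0.61) and Eef1b2 (0.58), and 0 were lower, against the 5.3% of all genes given above.

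Ribosome biogenesis genes, which build the subunits in the nucleolus, were higher in T-like than in epithelial-like cells for 20 of 32 and lower for 3, where 36.3% of all genes were higher. Nop56 (1.14), Rrp9 (0.98) and Fbl (0.87), which act on ribosomal RNA with small nucleolar RNAs, were among the higher ones. In macrophage-like cells 6 of 31 were higher and 13 lower, where 43.9% of all genes were lower. Mitochondrial ribosomal protein genes, which serve another ribosome, were counted beside these. Of 77, 10 were higher and 34 lower in T-like cells, where 36.3% of all genes were higher and 41.3% lower. Mrps6, of the small subunit of that ribosome, was at -2.13. In macrophage-like cells 2 were higher and 52 lower, where 35.5% of all genes were higher and 43.9% lower. The 25 regulators of translation held Eif4ebp1, the mTORC1 target that blocks cap-dependent initiation, which was lower in T-like cells (-2.49, SE 0.10). Trib3 (-3.8) and Ddit4, an inhibitor of mTORC1 (-0.91), were lower there too. In macrophage-like cells Ddit4 was lower (-1.72), while Ppp1r15a (1.58) and Eif4e (0.70) were higher. In all, 7 of 24 tested regulators were higher and 8 lower in T-like cells, and 12 higher and 8 lower in macrophage-like cells, to be read against the same shares of all genes.

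For the treatment, the same lists gave few calls in epithelial-like cells and 0 in T-like and macrophage-like cells (edgeR). At an unadjusted p under 0.05 in either direction there were 9 of 21 genes with the same kind of mRNA start and 8 of 73 mitochondrial ribosomal protein genes in T-like cells, where 15.6% of all genes were. In macrophage-like cells there were 1 of 21 and 5 of 74, where 9.41% of all genes were. In epithelial-like cells 8 of 77 mitochondrial ribosomal protein genes rose and 0 fell (Mrpl38 by 0.48, Mrpl45 by 0.36 and Mrps7 by 0.33), and 3 of 32 biogenesis genes fell (Polr1a -0.40, Nolc1 -0.28 and Nop56 -0.27). Of 24 regulators 2 rose, Eif4ebp1 (0.62, SE 0.19) and the stress factor Ddit3 (0.52, SE 0.10), and Eif4ebp2 fell (-0.35, SE 0.08). Among the 21 genes with the same kind of mRNA start Cct4 (0.38) and Eif3h (0.30) rose and Eef1g fell (-0.28). Among all genes in this comparison 7.55% were higher and 7.12% lower, and these calls rest on the same pools as the members.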

How the data were processed

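Single cells of 15 tumours were measured by droplet RNA-seq with tag multiplexing. The authors deposited UMI counts per gene and cell, and submitters' processing notes name bcl2fastq, Cell Ranger, Seurat 4.3.0 and mm10, while the matrix headers give Cell Ranger 6.1.2. Cells with 2500 to 27500 gene UMIs and at most 20% mitochondrial UMIs were kept, which removed 7126 isotype and 2981 B20-4.1.1 cells by the UMI minimum. No doublet caller was run. The UMI maximum and the 719 cells with markers of several classes, left without a class, stand in for one. Classes came from marker counts (at least 40% of a class's markers, at least 3, and no other class), and T-like states from at least 3 of 6 naive or 3 of 11 effector markers. The gate thresholds were set after marker counts were seen.

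Counts were summed per tumour and class (at least 20 cells) and fitted across all genes with edgeR 4.0.16 (TMM, filterByExpr, two-sided quasi-likelihood test, Benjamini-Hochberg adjusted p under 0.05) in R 4.3.3. Class and state comparisons carried the tumour as a block. P-values measure the spread between tumours of separate mice, and tumours of a pool shared a library. Alternatives were DESeq2 1.42.0, no low-count filter, scaling by genes that are no members, cells of 2500 to 5000 UMIs, at most 10% mitochondrial UMIs, leaving out each pool, limma 3.58.1 voom with the pool as a random block, sums per pool, no T-rich tumours and effector-marker cells only, and, chosen after seeing the data, a gate at 50% of markers. On simulated counts the treatment fit in epithelial-like cells (12289 genes) recovered 90.8% of genes changed by 1 and 99.0% of those changed by 2 on the log2 scale, and the T-like against epithelial-like fit (10101 genes) 92.7% and 100%. The simulated tumours had no pool effect and no true change smaller than 1. These shares thus do not give the power or error of the treatment fit on pooled tumours at the sizes seen in the members. Near copies were searched in GENCODE transcripts with BLAST 2.17.0.

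Members and gene lists were chosen with earlier results of these data known. Genes were named by rule: the 4 largest called increases and decreases per comparison, the stalk proteins, Rpsa and the paralogues with their partners, the 3 highest members, and up to 3 called genes per pathway list. Rpl31, Rpl6, Rpl24, Rpl9, Rpl27 and Rps12 fell outside it and were named after their values were seen. Depth was 3089430 to 21402317 kept gene UMIs per tumour. Some named items are not reported here.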

Additional observations from a re-analysis of the deposited data

How the results depend on the processing

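The class and state differences kept the direction of their member medians under every alternative run. The treatment medians in epithelial-like and macrophage-like cells changed sign with the pool left out. The T-like treatment median stayed above 0, at 0.15 to 0.50. The number of members called for the treatment depended on pools in each of these classes. Members called for the treatment in epithelial-like cells numbered 7, against 13 with DESeq2, 1 with the pool as a random block, 0 with sums per pool (2 at an unadjusted p under 0.05) and 2 to 57 without 1 pool, with medians of -0.15 to 0.37. In macrophage-like cells 0 were called, 1 with DESeq2 and 0 to 9 without 1 pool (medians -0.13 to 0.30). In T-like cells 0 were called, 4 with DESeq2, 1 in effector-marker cells and 0 to 20 without 1 pool (20 without B20-4.1.1 pool 3). The T-like median of 0.40 moved to 0.15 without the T-rich tumours, 0.21 in effector-marker cells, and 0.16 and 0.19 when these had the pool as a random block. Among cells of 2500 to 5000 UMIs the medians were 0.69 for T-like and -0.31 for macrophage-like against epithelial-like cells and 0.63 for naive-marker against effector-marker cells, and without a low-count filter the macrophage-like median was -0.65. Naive-marker calls were 0 to 65 without 1 pool. The epithelial-like difference in summed level was 1.41, and -173 to 176 without 1 pool. The cause was not tested.

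Signs of named genes that were not called turned in places (log2 fold change). For the treatment in epithelial-like cells among cells of 2500 to 5000 UMIs, Rpl39 was -0.13, Rpl7 -0.077, Rplp0 -0.12, Rps4x -0.030 and Rpsa -0.054, and without a low-count filter Rpl39 was -0.011 and Rps27 -0.0058. In macrophage-like cells of that depth Rpl22l1 was -0.0020, Rpl7 -0.00028, Rplp0 -0.032 and Rps27l 0.10. Rplp0 was -0.0096 there without the filter, and Rplp1 0.0066 at the mitochondrial limit of 10% and 0.034 with the gate at 50%. In T-like cells Rpl10 was 0.020 without the filter, 0.025 at the mitochondrial limit of 10% and 0.042 with sums per pool. For T-like against epithelial-like cells Rplp0 was -0.012 without the T-rich tumours, and Rps27a was -0.049 with DESeq2, -0.062 without the filter, -0.031 with the gate at 50% and -0.10 without the T-rich tumours. For macrophage-like against epithelial-like cells Rpl22l1 was 0.12 among cells of 2500 to 5000 UMIs.

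Without 1 pool, treatment values in epithelial-like cells ran from -0.16 to 0.36 for Rpl22, -0.24 to 0.56 for Rpl22l1, -0.060 to 0.28 for Rpl3, -0.20 to 0.27 for Rpl39, -0.093 to 0.19 for Rpl7, -0.064 to 0.17 for Rpl7l1, -0.15 to 0.44 for Rplp0, -0.26 to 0.18 for Rplp1, -0.14 to 0.14 for Rps27, -0.61 to 0.091 for Rps27l, -0.13 to 0.41 for Rps3a1, -0.15 to 0.45 for Rps4x and -0.20 to 0.34 for Rpsa. In macrophage-like cells they ran from -0.077 to 0.16 for Rpl10, -0.14 to 0.33 for Rpl22, -0.18 to 0.30 for Rpl22l1, -0.12 to 0.21 for Rpl3, -0.078 to 0.27 for Rpl39, -0.041 to 0.16 for Rpl7, -0.024 to 0.20 for Rpl7l1, -0.18 to 0.21 for Rplp0, -0.16 to 0.13 for Rplp1, -0.21 to 0.36 for Rps27a, -0.53 to 0.31 for Rps27l, -0.13 to 0.36 for Rps3a1, -0.13 to 0.36 for Rps4x and -0.086 to 0.31 for Rpsa. Rpl10 ran from -0.21 to 0.046 in T-like cells, Rps27a from -0.059 to 0.16 for T-like and Rps27 from -0.25 to 0.070 for macrophage-like against epithelial-like cells.

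No paired analysis was possible because pools were numbered in accession order and no label ties a pool of one treatment to a pool of the other. Depth limits the smaller classes most: T-like sums rest on 2746 and macrophage-like sums on 1595 cells, and the naive-marker comparison on 4 tumours, 1 of them isotype with 20 naive-marker cells.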

Other observations

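Small cell classes outside the comparisons above gave single values for the summed level of the 83 genes. Fibroblast-like cells reached 20 cells in 1 tumour, B20-4.1.1 tumour 1, with 1884 UMIs per 10000, within the epithelial-like range of 1828 to 2343. T-like cells with neither set of state markers held 3615, 3640 and 3874 in 3 B20-4.1.1 tumours, at median UMIs per cell of 3028 to 3409. Neutrophil-like cells, 84 in all, were below the macrophage-like cells of their tumour in 13 of 13 tumours with any such cell, and their leading member was Rps29 at 26.6 UMIs per 10000. Cells left without a class because they held markers of several classes had 1584 to 2453 in the 14 tumours with at least 20 such cells. None of these was tested, since they come from few cells or few tumours.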
